A study of Mus musculus with 23 samples.

Results

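Open chromatin of the geriatric proximal colon epithelium was compared with that of the juvenile colon epithelium by ATAC-seq, in which a transposase inserts sequencing adapters into accessible DNA and the piled-up insertions are called as peaks. The comparison used every library titled as geriatric proximal colon or as juvenile colon, 5 of the 23 libraries of a mouse series that covers duodenum and colon at 3 ages. Peaks of these 5 libraries on the 19 autosomes were merged wherever they overlapped by at least 1 bp. This gave 34194 regions, whereas the same merge over all 23 libraries gave 144328.

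Juvenile colon came from mice 15 days old and each of its 3 libraries pooled 6 pups. Geriatric proximal colon came from mice 21 months old, and each of its 2 libraries, numbered 1 and 3, pooled 2 mice. The series description states that data of a further geriatric proximal colon sample were set aside for poor DNA quality. Both groups were intestinal epithelium released with EDTA, and no strain, sex, genotype or treatment is given for either. The labels name no part of the colon for the juvenile libraries, nor for the adult ones. Geriatric tissue was rotated in 5 mM EDTA in PBS and its cells were dissociated with trypsin, whereas the protocol for juvenile and adult colon names an EDTA chelation buffer and breaks off there. Age, part of the colon, dissociation and the number of pooled animals therefore changed together between the 2 groups and cannot be told apart. The labels call the replicates biological. Where pools shared a litter or a preparation day is not given, so the p-values reflect the spread among these libraries only, which may be technical.

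The proximal colon receives the contents of the small intestine and takes up water and salt, and its epithelium, patterning genes and microbial load differ from those of the distal colon. Colonic epithelium is folded into crypts, with stem and dividing cells towards the base and absorptive colonocytes and goblet cells above them, and it has no villi. The duodenum has crypts too, but its differentiated cells lie on villi. In the juvenile period before weaning, the gut still handles milk, and the epithelium matures as solid food replaces it. Promoters of widely used genes tend to be open in most cell types, while enhancers are open in fewer. Because the deposited peaks are in mm9 coordinates and no annotation of that build was at hand, regions are given by position and no gene, promoter or cell type marker was assigned to them, so the labelled tissue was not checked against marker genes.

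The libraries differed in quality measures along with group. Kept reads were 39.0, 32.0 and 47.9 M in juvenile colon 1, 2 and 3 and 20.5 and 34.0 M in geriatric proximal colon 1 and 3. Repeated reads, which the caller discarded, made up 18 to 19% of the juvenile colon libraries but 48 and 43% of the geriatric ones. The read extension set for calling was 147 to 149 bp in juvenile colon, 135 bp in geriatric library 1 and 94 bp in geriatric library 3. The median peak was 270 to 291 bp wide in the juvenile libraries and 226 and 162 bp in the geriatric ones. In the 15 duodenum libraries repeated reads ran from 41 to 69% and in the 6 juvenile and adult colon libraries from 18 to 39%. The part of these measures in the results below was not tested, except where a value is given.

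Geriatric proximal colon had fewer peaks called than juvenile colon. The juvenile libraries had 21481, 19542 and 16666 autosomal peaks and the geriatric ones 16386 and 10647, so that the groups did not overlap but the best geriatric library lay only just under the lowest juvenile one. The difference in means was -5713 peaks, with a two-sided exact permutation p of 0.2 (n = 2 and 3), which is the smallest p this design can give. Adjusted over the 8 tests computed it was 0.267. The shift rested mostly on library 3, since without it the difference was -2844 peaks. To set libraries side by side, only the 10647 peaks of highest -log10 p were taken from each list, the length of the shortest list. At that length the weakest peak retained had a -log10 p of 9.73 to 11.4 in the juvenile libraries, 8.30 in geriatric library 1 and 4.31 in geriatric library 3, whose whole list was used.

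Most of what was open in every geriatric library was open in every juvenile library too. With equal-length lists, 4685 regions, 13.7% of the catalogue, held a peak in all 5 libraries. A smaller set separated the groups. Peaks were present in both geriatric libraries and no juvenile library at 866 regions, 2.53% of the catalogue, and in all 3 juvenile libraries and no geriatric library at 1176 regions, 3.44%. On the full lists the first count was 692 regions (2.02%) and the second 2250 (6.58%), while 5938 regions were open in all 5. Of the 866 geriatric-only regions, 429 were also geriatric-only on the full lists. Of the 1176 juvenile-only regions, 688 were also juvenile-only on the full lists. These regions were defined by the 5 libraries themselves, so their absence from the other group is a matter of definition and carries no test.

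**Figure D1:**
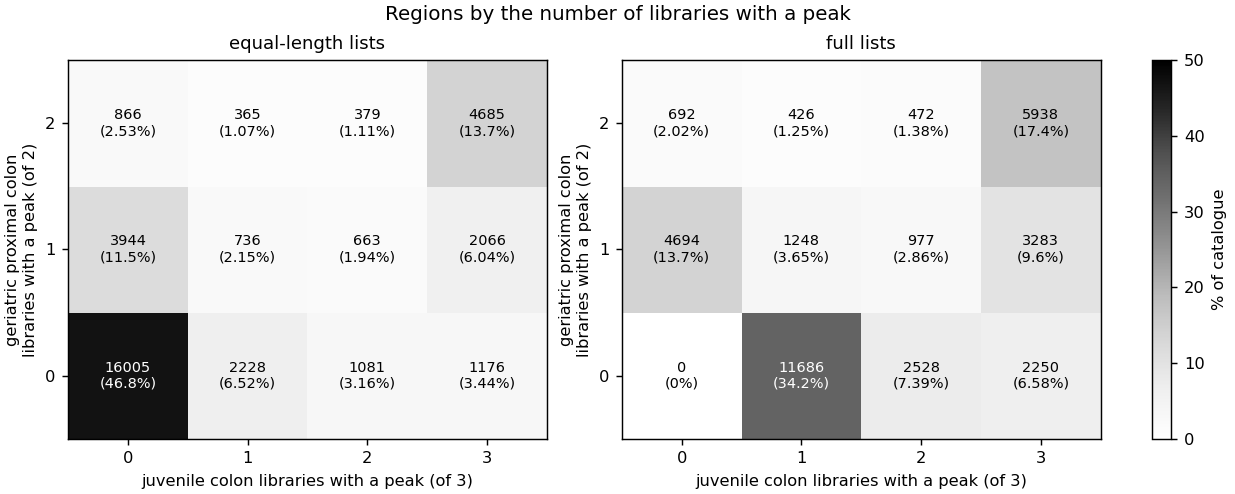
Number of regions (and % of the 34194 catalogue regions, also the grey scale) by how many juvenile colon libraries (x axis, 0 to 3) and how many geriatric proximal colon libraries (y axis, 0 to 2) held a peak, on equal-length lists at left and full lists at right. The corners are the regions the comparison turns on: 866 and 692 at top left, 1176 and 2250 at bottom right, and 4685 and 5938 at top right.

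The 2 geriatric libraries were no more alike than a geriatric and a juvenile library were. On equal-length lists the Jaccard index, the regions shared by a pair of libraries over the regions called in either, was 0.697, 0.702 and 0.712 for the 3 juvenile pairs. It was 0.459 for the geriatric pair and 0.459 ± 0.0216 (SD over 6 pairs, range 0.438 to 0.482) between groups. Geriatric library 1 shared 0.477 to 0.482 with each juvenile library, above its 0.459 with geriatric library 3. Pairs share libraries, so no test was run on them. Peaks in 1 geriatric library alone made up 18.2% of the regions of library 1 and 21.3% of those of library 3, against 6.91 to 7.46% in each juvenile library. The geriatric-only set was larger where 1 geriatric library sufficed. It held 2990 regions without library 1, and without library 3 it held 2716 at the same list length and 4555 at the length of 16386 peaks that the remaining lists allow. Leaving out 1 juvenile library gave 979 to 1011.

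The separating regions were neither the strongest nor the widest of the catalogue. Within a library, peaks were ranked by -log10 p and given a percentile, 100 being the strongest. The median percentile of the geriatric-only regions was 60.5 in geriatric library 1 and 42.7 in library 3, and their median fold enrichment over local background, the authors' own value, was 5.92 and 4.97. The juvenile-only regions had median percentiles of 68.4, 66.1 and 59.3 in juvenile libraries 1, 2 and 3. Regions open in all 5 libraries had medians of 83.8 to 87.6 in the juvenile libraries and of 81.5 and 68.3 in the geriatric ones. Median widths were 314 bp for geriatric-only, 459 bp for juvenile-only and 639 bp for regions open in all 5, against 251 bp for the catalogue. Many separating regions were open below the length limit in the other group. Juvenile libraries 1, 2 and 3 had a peak in their full lists at 299, 254 and 179 of the 866 geriatric-only regions. Geriatric library 1 had one at 488 of the 1176 juvenile-only regions, or 41.5%, and library 3 had none, its list being used whole.

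Adult colon, which the selection did not use, held most of the juvenile-only regions and few of the geriatric-only ones. In mice 90 days old, 74.6, 74.1 and 69.8% of the juvenile-only regions had a peak in adult colon libraries 1, 2 and 3 (72.8 ± 2.64%, SD, n = 3). The geriatric-only regions had one in 12.9 to 14.2% (13.5 ± 0.636%). The whole catalogue stood at 30.3%, so the adult colon was above it at juvenile-only regions and below it at geriatric-only ones in 3 of 3 libraries. The gap between the sets was 59.3 ± 3.19 percentage points (SD, n = 3), with no test since both sets were read in the same libraries. The sets also differed in peak strength and in how alike the libraries defining them were, and the part of this in the gap was not tested. On full lists the adult colon libraries had a peak at 97.1 ± 2.83% of the juvenile-only and 57.9 ± 12.9% of the geriatric-only regions, and the gap fell to 39.2 points. There the geriatric-only shares of adult colon 1, 2 and 3 were 44.6, 58.8 and 70.3%, against catalogue shares of 46.9, 54.6 and 59.2%. The geriatric-only set was thus below the catalogue in 1 of the 3 libraries and above it in the other two. Adult colon shares with juvenile colon the unnamed part and the EDTA chelation buffer, and with geriatric colon the pooling of 2 animals. Its repeated reads (29 to 39%) lay between the 2 groups, and its extension (152 to 164 bp) was longer than in either.

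**Figure D2:**
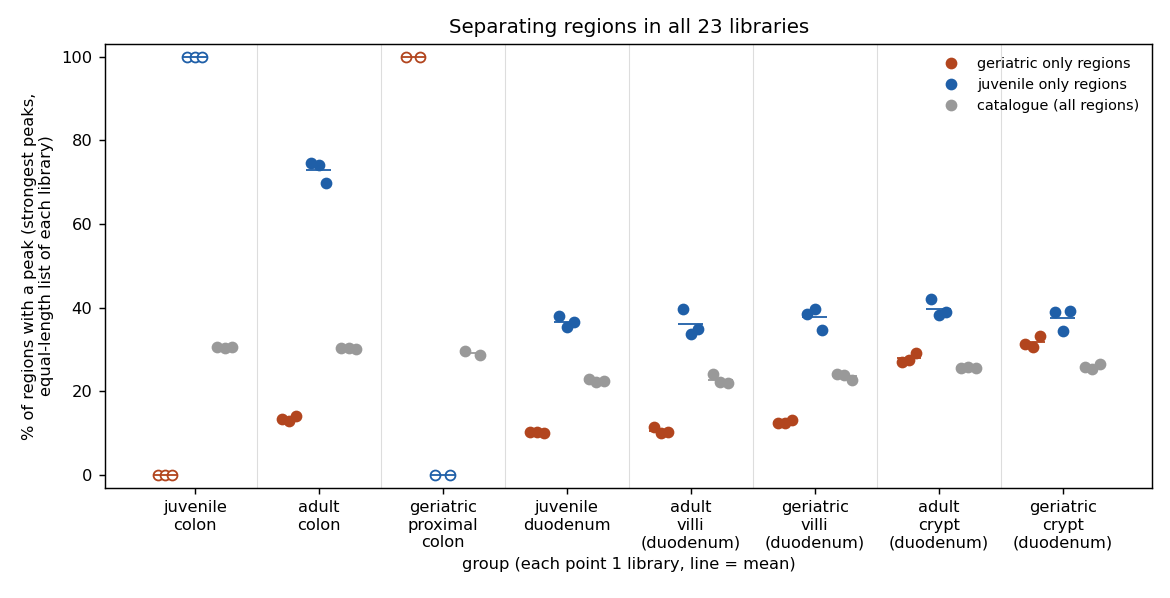
Share of geriatric-only regions (866, red), juvenile-only regions (1176, blue) and all catalogue regions (34194, grey) with a peak in the equal-length list of each of the 23 libraries, by group. Each point is 1 library and each line a group mean; open symbols mark the 5 libraries that defined the sets, at 0 or 100% by construction. Red points reach 27.1 to 33.4% in the duodenal crypt libraries and stay at 14.2% or less in the other held-out groups.

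In the duodenum, geriatric-only regions were open more often in crypts than on villi. Among adult libraries, 27.9 ± 1.11% of the 866 regions had a peak in crypt (27.1 to 29.2%) and 10.6 ± 0.808% in villus (10.0 to 11.5%, SD, n = 3 each). Among geriatric libraries the shares were 31.8 ± 1.44% in crypt (30.6 to 33.4%) and 12.8 ± 0.333% in villus (12.6 to 13.2%). All 6 crypt libraries lay above all 6 villus libraries. The crypt excess was 17.3 percentage points in adult and 18.98 in geriatric libraries, each with a two-sided exact permutation p of 0.1 (n = 3 and 3), the smallest possible for unpaired libraries, and 0.16 after adjustment over 8 tests. Whether villus and crypt libraries of the same number share an animal is not given. All tests of crypt against villus took them as independent, so their p-values hold only if they are. The catalogue differed far less, with 25.7% in adult crypt against 22.8% in adult villus and 25.9% against 23.6% in the geriatric libraries. Regions open in all 5 colon libraries were also open more often in crypt. Their shares were 85.5% against 74.3% in adult and 85.3% against 77.8% in geriatric libraries. Juvenile duodenum, which was taken whole, held 10.3 ± 0.115% of the geriatric-only regions (SD, n = 3).

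The juvenile-only regions had similar shares in crypt and villus on equal-length lists. In adult libraries, 39.8 ± 2.02% of them had a peak in crypt and 36.2 ± 3.20% in villus. In geriatric libraries the shares were 37.6 ± 2.78% for crypt and 37.7 ± 2.59% for villus (SD, n = 3 each). Crypt minus villus was 3.63 points in adult libraries (exact permutation p = 0.3, adjusted 0.343) and -0.142 points in geriatric ones (exact permutation p = 1, adjusted 1). Both signs turned under other settings. With peaks of -log10 q of at least 5, the juvenile-only crypt excess was 11.2 points in adult and 9.28 points in geriatric libraries (exact permutation p = 0.1 each). That was more than the geriatric-only excess of 4.84 and 8.25 points under the same filter, so the order of the sets turned, although the difference between them was not tested. In all 12 crypt and villus libraries the juvenile-only share was above the catalogue share.

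Several measures bear on the crypt excess. Repeated reads were 59.3 ± 3.79% in adult crypt and 45.3 ± 4.04% in adult villus, whereas geriatric crypt had 55 ± 4.36% and geriatric villus 59 ± 8.72% (SD, n = 3 each), and their part in the shares was not tested. With each peak replaced by 200 bp around its summit, an alternative added after the data were seen, the excess was 16.0 and 17.0 points. It was 7.77 and 8.76 points when geriatric colon library 1 was left out and 11.7 and 13.05 points without library 3 at the same list length, in adult and geriatric libraries respectively. When only peaks with a -log10 q of at least 5 were used it had an exact permutation p of 0.4 in adult and 0.2 in geriatric libraries. That filter left 5459 peaks in geriatric library 3 and a geriatric-only set of 420 regions.

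On equal-length lists the share of geriatric-only regions was a little higher in geriatric than in adult duodenum. The difference was 3.81 points in crypt and 2.16 points in villus, with no overlap between the 3 geriatric and 3 adult libraries in either fraction. In villus, regions open in all 5 colon libraries were also higher without overlap, with 77.8% in geriatric and 74.3% in adult libraries. The catalogue had 23.6 and 22.8% there. In crypt these regions had 85.3 and 85.5%, and the catalogue 25.9 and 25.7%. Both geriatric-only differences were tested after their values had been seen, each with an exact permutation p of 0.1 (n = 3 and 3) and 0.16 after adjustment, so neither passed 0.05. On full lists the groups overlapped in both fractions, and the villus order turned, with 44.5% in geriatric and 46.8% in adult villus, while crypt had 79.7 and 77.0%. For age in the duodenum as a whole, the geriatric-only share minus the juvenile-only share was taken in each library. Villus and crypt libraries of the same number and age were averaged, since they may share an animal. The 6 later values were -21.6, -17.2 and -17.2 points in adult and -16.9, -15.4 and -13.8 points in geriatric duodenum (-17.0 ± 2.62, SD, n = 6). In juvenile duodenum it was -26.4 ± 1.35 points (SD, n = 3).

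The excess of the juvenile-only over the geriatric-only share was therefore smaller in the later duodenum, by 9.34 points. The exact permutation p was 0.0238 (n = 6 and 3), the smallest possible, and 0.16 after adjustment. The juvenile-only share itself was 36.6% in juvenile duodenum. It was 36.2 and 37.7% in adult and geriatric villus, and 39.8 and 37.6% in crypt. The geriatric-only share was 10.3% in juvenile duodenum, 10.6 and 12.8% in villus and 27.9 and 31.8% in crypt. The age difference was larger in crypt than in villus, although the difference between the fractions was not tested. With villus libraries alone it was 1.14 points (exact permutation p = 0.5) and with crypt libraries alone 17.5 points (exact permutation p = 0.0238). Since juvenile duodenum was not divided into villus and crypt, age and the share of crypt cells in the fraction cannot be told apart here. In bulk libraries, fewer cells of a type with an open region and less opening per cell cannot be told apart either. Without geriatric colon library 3 the difference was 3.29 points (exact permutation p = 0.0952), or 6.10 points with the list length kept (exact permutation p = 0.0476). When a peak had to cover 50% of the region it was 7.66 points (exact permutation p = 0.214).

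Lists that the authors made from other libraries showed the same order. They deposited 2 region lists for each of 8 comparisons that use neither group. Of the 866 geriatric-only regions, 192 (22.2%) overlapped the adult list of regions higher in crypt than villus, compared with 4.08% of the catalogue and 1.79% of the juvenile-only regions. None overlapped the adult list of regions higher in villus, which held 1.31% of the catalogue. In the geriatric crypt list the counts were 137 geriatric-only regions (15.8%) and 3 juvenile-only regions (0.255%), against 2.45% of the catalogue, and in the geriatric villus list 1 (0.115%) and 34 (2.89%), against 1.95% of the catalogue. As shares of the lists, geriatric-only regions made up 5.57% of the adult and 6.80% of the geriatric crypt list. These lists come from the same crypt and villus libraries as the shares above and add no independent libraries.

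The authors' lists for adult colon against adult crypt and villus put the juvenile-only regions on the colon side. Of the 1176 regions, 436 (37.1%) were in the list higher in colon than in crypt and 3 (0.255%) in the opposite list. The geriatric-only regions split the other way, with 64 (7.39%) on the colon side and 101 (11.7%) on the crypt side. The catalogue had 18.4 and 2.78%, and regions open in all 5 colon libraries had 54.6 and 0.384%. Against villus, 320 juvenile-only regions (27.2%) were on the colon side and none on the villus side. For the geriatric-only regions those counts were 146 (16.9%) and 16 (1.85%), near the catalogue's 16.7 and 1.12%. Regions open in all 5 colon libraries had 54.7 and 0.0427%, so the colon side was not particular to the juvenile-only set. Geriatric-only regions therefore leaned to crypt against adult colon and not to villus. In the 4 lists of juvenile duodenum against adult or geriatric villus, each set had between 1.28 and 5.20% of its regions and the catalogue between 1.75 and 3.08%.

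**Figure D3:**
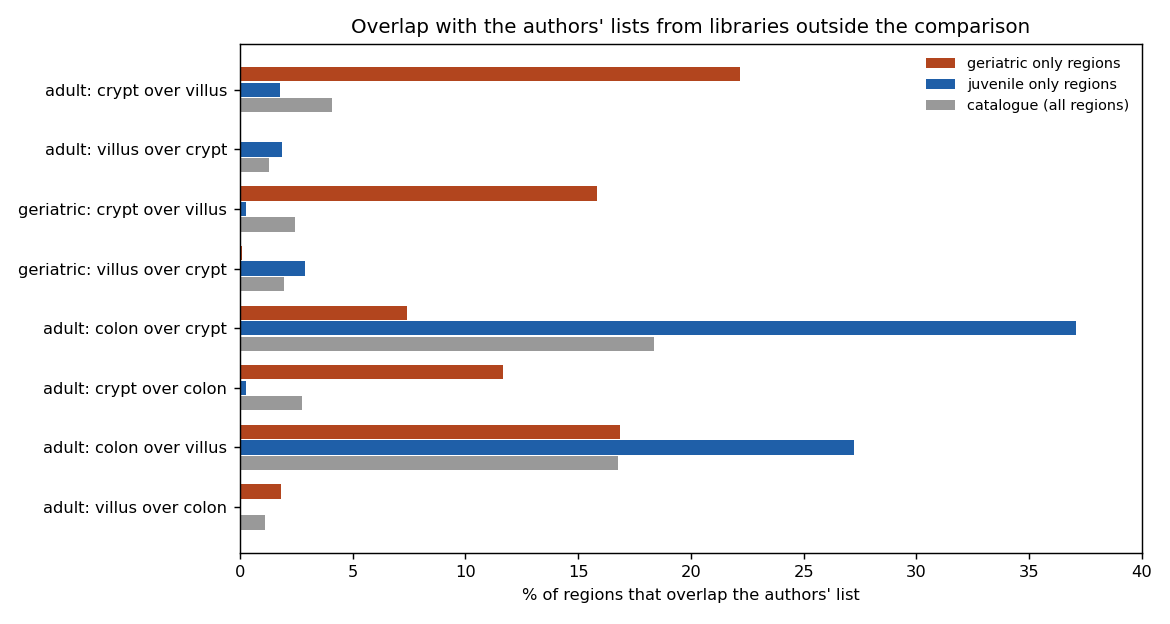
Share of the 866 geriatric-only regions (red), the 1176 juvenile-only regions (blue) and all 34194 catalogue regions (grey) that overlap each of 8 region lists the authors deposited for adult or geriatric libraries outside the comparison (x axis in %). Red exceeds grey for crypt over villus, 22.2 against 4.08% in adults, and blue exceeds grey for adult colon over crypt, 37.1 against 18.4%. Regions open in all 5 colon libraries, which are not drawn, had 54.6% in that last list.

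On full lists the sets also differed in how widely they were open in the 18 libraries outside the comparison. Geriatric-only regions had a peak in a median of 7 of them, juvenile-only regions in a median of 16, the catalogue in 11 and regions open in all 5 colon libraries in 18. Of the 692 geriatric-only regions, 51 (7.37%) had a peak in no other library and 27 (3.90%) in all 18. Of the 2250 juvenile-only regions, 11 (0.489%) had none and 696 (30.9%) had all 18, against 18.99 and 26.6% of the catalogue. Juvenile-only regions thus included many that were open in all 18 libraries outside the comparison, at a share not far above that of the catalogue. Geriatric library 3 had the shortest list of the 23.

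**Figure D4:**
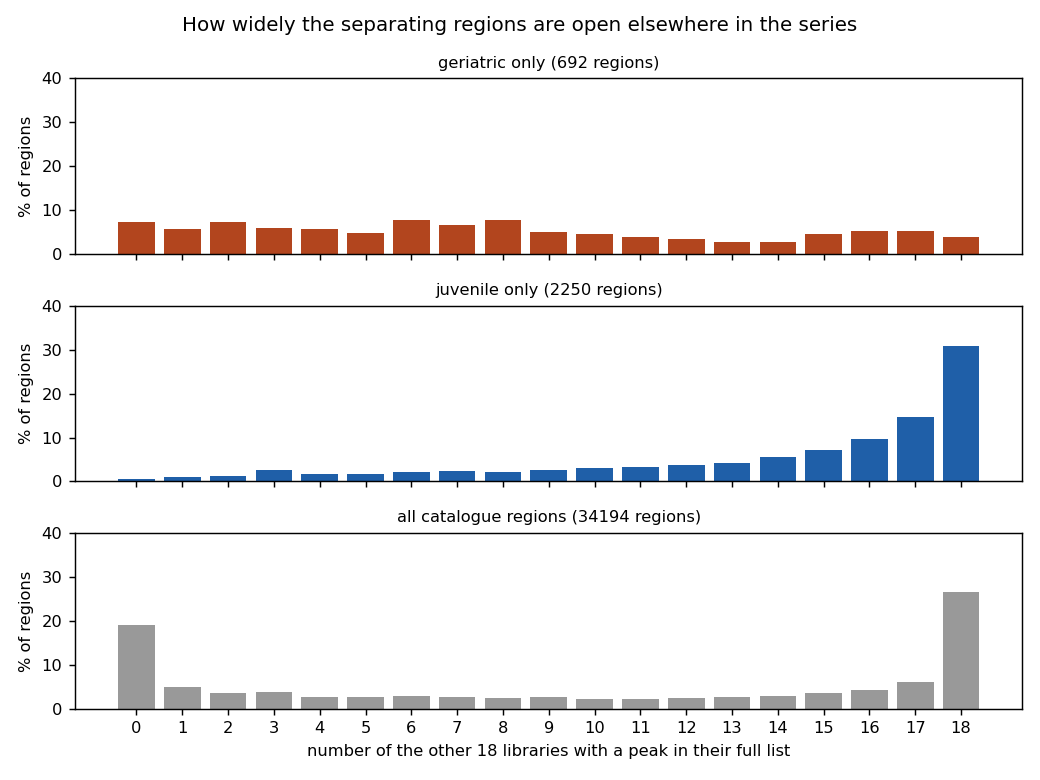
Percent of regions (y axis) by the number of the other 18 libraries with a peak there in their full list (x axis), for 692 geriatric-only, 2250 juvenile-only and all 34194 catalogue regions. Juvenile-only regions pile up at 18 (30.9%), as catalogue regions do (26.6%), whereas geriatric-only regions spread over the whole range, with 3.90% at 18 and 7.37% at 0.

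Fraction by fraction, 443 of the 692 geriatric-only regions (64.0%) had a peak in more crypt than villus libraries and 37 (5.35%) in fewer. In the catalogue those shares were 26.4 and 14.8%, and in the juvenile-only set 29.6 and 24.2%. All 6 crypt libraries and no villus library had a peak at 93 geriatric-only regions (13.4%), at 12 juvenile-only regions (0.533%) and at 1.87% of the catalogue. The opposite pattern, all 6 villus and no crypt library, occurred at none of the geriatric-only regions, at 8 of the juvenile-only regions (0.356%) and at 0.231% of the catalogue. Of the 93, 42 had no peak in adult colon either, which is 6.07% of the geriatric-only set against 0.959% of the catalogue. All 3 adult colon libraries had a peak at 110 geriatric-only (15.9%) and 1686 juvenile-only regions (74.9%), and none of the 3 did at 294 (42.5%) and 116 (5.16%). In the catalogue those shares were 43.3 and 36.6%. Geriatric-only regions were thus well below the catalogue for a peak in all 3 adult colon libraries and somewhat above it for a peak in none. Open in adult colon and in no duodenum library were 7 geriatric-only and 33 juvenile-only regions, and the catalogue had 0.871% of such regions.

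The 12 geriatric-only regions with the highest mean percentile in the geriatric libraries were 169 to 516 bp wide and are given in mm9 coordinates. The first, chr15:35093810-35094032, had a fold enrichment of 11.1 in geriatric library 1 and 8.12 in library 3, with summit pileups of 27 and 21 reads. It was open in all 6 crypt libraries, in 5 of 6 villus libraries and in 2 of 3 adult colon libraries. The second, chr12:48934871-48935071 (10.9 and 7.75-fold), had a peak in 5 crypt libraries and 1 villus library and in no adult colon library. The third, chr13:4559105-4559291 (7.83 and 9.19-fold), was open in 6 crypt and 3 villus libraries. These 3 regions were thus open in crypt more often than on villus, without being confined to crypt.

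Others among the 12 were narrower in range. At chr5:12512635-12512865 (8.81 and 7.27-fold) the only other libraries with a peak were 5 of the 6 crypt libraries. At chr13:69209978-69210237 (8.71 and 6.64-fold) they were all 6 crypt libraries and 1 adult colon library, with no villus library. At chr8:83305166-83305681 (7.61 and 7.46-fold), the widest of the 12, they were all 6 crypt, 1 villus and 1 juvenile duodenum library. The opposite order was seen at chr14:78281539-78281708 (7.25 and 9.23-fold), with 3 villus and no crypt library, and at chr5:115523040-115523208 (7.17 and 8.12-fold), with 4 villus, 2 crypt and all 3 adult colon libraries. Over the 12, crypt libraries outnumbered villus libraries at 8, were outnumbered at 2 and equalled them at 2, and 5 had no peak in adult colon. None was open in all 18 other libraries.

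Of the 12 highest-ranked juvenile-only regions, 11 had a peak in all 18 other libraries. They were 319 to 825 bp wide. At chr16:67620847-67621475, the first, fold enrichment was 11.6, 10.9 and 10.6 in juvenile libraries 1, 2 and 3, with pileups of 55, 43 and 50 reads, and 16 other libraries had a peak. At chr2:121096897-121097370 it was 9.72, 12.3 and 9.94 and at chr14:103514568-103514886 it was 12.2, 11.1 and 7.89, both open in all 18. The widest, chr2:119500430-119501254, reached 11.4, 11.1 and 6.89-fold. The 11 regions other than the first were therefore open throughout the series apart from the 2 geriatric proximal colon libraries. Whether a peak was missed there at their depth was not tested. Among the 12, chr12:8647528-8648033, was covered to 50% in only some juvenile libraries.

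Regions of narrower range were chosen after their values had been seen. The strongest juvenile-only regions open in all 3 adult colon libraries and in no duodenum library were chr6:51120946-51121231 (6.76, 8.56 and 6.31-fold in juvenile libraries 1, 2 and 3), chr1:34371412-34371896 (8.39, 6.64 and 5.87-fold) and chr6:51122934-51123206 (6.84, 6.30 and 5.08-fold). The first and the last of these lie near each other on chromosome 6. Among geriatric-only regions, chr6:135779554-135780049 (7.00 and 5.96-fold) was open in all 3 adult colon libraries and no duodenum library. The strongest one open in all 6 crypt libraries but in no villus and no adult colon library was chr2:135402875-135403214 (7.65 and 6.28-fold). With no peak in any of the other 18 libraries, chr16:88651302-88651663 reached 8.36 and 5.52-fold in the geriatric libraries. The strongest juvenile-only region without a peak elsewhere, chr2:32167829-32168099, reached 4.65, 4.34 and 4.31-fold.

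By chromosome, geriatric-only regions on full lists were sparsest on chromosome 19, where 5 of 1113 catalogue regions (0.449%) belonged to the set. Their share was highest on chromosome 18 (2.89%) and chromosome 16 (2.68%). The juvenile-only share was highest on chromosome 19 (8.54%) and lowest on chromosome 18 (4.97%). On equal-length lists chromosome 19 had again the lowest geriatric-only share (0.898%), and chromosome 15 the highest juvenile-only share (4.34%) ahead of chromosome 19 (4.22%). No test was run over chromosomes, and base composition was not analysed here. Geriatric-only regions also lay farther from regions open in all 23 libraries, at a median of 102911 bp on equal-length lists, against 67999.5 bp for juvenile-only regions and 64498.5 bp for the catalogue. The distance was 0 inside such a region, where 4.39% of geriatric-only, 1.02% of juvenile-only and 16.6% of catalogue regions lay. Absence from 1 group largely keeps separating regions out of them, so part of the contrast with the catalogue follows from the selection. In windows of 1 Mb the largest geriatric-only clusters by count on equal-length lists held 5 regions, namely 5 of 35 catalogue regions at 26 to 27 Mb of chromosome 14 and 5 of 34 at 108 to 109 Mb of chromosome 7. The largest juvenile-only cluster by count held 8 among 78 at 79 to 80 Mb of chromosome 10. Smaller clusters made up a larger share of their window. They were 4 of 20 geriatric-only at 22 to 23 Mb of chromosome 16 and 7 of 30 juvenile-only at 88 to 89 Mb of chromosome 4.

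The authors' deposited lists for the same comparison held 1092 regions higher in geriatric proximal colon and 3033 higher in juvenile colon, of which 1031 and 2972 were autosomal. The authors' deposited lists give no fold change or p-value. They were made from these 5 libraries, so their direction in these libraries is not evidence apart from the lists. Of the autosomal regions higher in geriatric colon, 66.4 and 71.3% had a peak in the geriatric equal-length lists and 5.14 to 5.33% in the juvenile ones, a difference of 63.6 points. Of those higher in juvenile colon, 50.2 ± 0.553% (SD, n = 3) had a peak in the juvenile and 26.2 and 27.6% in the geriatric lists, a difference of -23.3 points. No test was made of these differences, whose direction the lists fix. With peaks of -log10 q of at least 5 the first difference was 29.95 points and the second -15.9, and on full lists the second was -38.9.

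Most regions of the juvenile list did not separate the groups by presence of a peak, although more did than in the catalogue. Of the autosomal regions of the juvenile list, 661 (22.2%) had a peak in all 5 equal-length lists and 1202 (40.4%) in none of them. In the geriatric list these were 26 (2.52%) and 133 (12.9%), and in the catalogue 13.7 and 46.8%. The geriatric list overlapped 431 of the 866 geriatric-only regions (49.8%), which covered 41.8% of the list. The juvenile list overlapped 340 of the 1176 juvenile-only regions (28.9%), or 11.4% of the list. In the catalogue, geriatric-only regions made up 2.53% and juvenile-only regions 3.44%. On full lists, 566 regions of the juvenile list (19.04%) had a peak in all 3 juvenile libraries and in no geriatric library. The catalogue share there was 6.58%. A further 500 regions of the juvenile list (16.8%) had no peak in any of the 5 full lists. No region of either list overlapped the opposite set. In the held-out libraries the geriatric list had a peak at 25.8% of its regions in adult crypt and 28.0% in geriatric crypt, against 11.7 and 12.3% in villus, 11.5% in juvenile duodenum and 12.4 ± 0.423% in adult colon (means, n = 3 each). The juvenile list had one at 52.0 ± 0.542% in adult colon, against 50.2% in juvenile colon, and at 34.6 to 39.5% on average in each duodenal group, with villus above crypt. The catalogue had 25.7% in adult and 25.9% in geriatric crypt, and 22.8 and 23.6% in villus. It had 22.5% in juvenile duodenum and 30.3% in adult colon. The geriatric list was thus near the catalogue in crypt and below it in the other held-out groups. The juvenile list was above the catalogue in every held-out group.

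**Figure D5:**
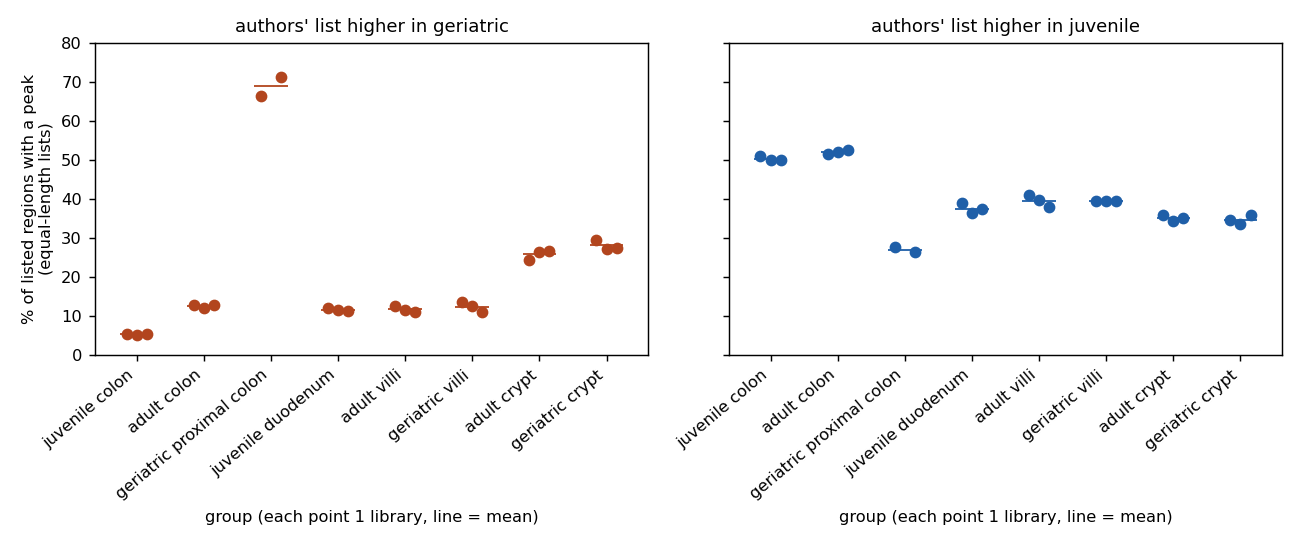
Share of the autosomal regions of the authors' 2 lists for this comparison with a peak in the equal-length list of each library (y axis in %), by group; each point is 1 library and each line a group mean. The list higher in geriatric colon stands at 66.4 and 71.3% in its own group and next highest in crypt (25.8 and 28.0%), and the list higher in juvenile colon at 50.2% in juvenile and 52.0% in adult colon. The catalogue, which is not drawn, had 25.7 and 25.9% in adult and geriatric crypt, near the crypt shares of the first list, and 30.3% in adult colon.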

How the data were processed

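ATAC-seq peak tables of 23 libraries were used, 1 per library, grouped by sample title. Per the file headers, the authors called peaks on each library alone with MACS2 2.1.0.20150731 without a control library, with an effective genome size of 1.87e+09, 1 read kept per position, a local background of 10 kb and a q cutoff of 0.05. Per the file headers each peak has a pileup signal (extended reads at the summit, not scaled to depth), a −log10 p-value and −log10 q-value, and a fold enrichment, the ratio of pileup to local background; these are the authors' own values and served only to rank, filter or describe the peaks of 1 library. Build mm9 and the tools Bowtie2, Picard 2.18.27, bedtools 2.17.0, SAMtools 0.1.19, cutadapt 1.9.1, DiffBind and deepTools are named, without their roles, in the submitters' processing notes. For a shift of reads for the transposase, and for the threshold of the authors' deposited region lists, nothing is given in the sources used here.

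Autosomal peaks of the 5 compared libraries were merged at 1 bp overlap, and a region counted as open in a library when a peak overlapped it by 1 bp. Equal-length lists hold the 10647 peaks of each library with the highest −log10 p. Separating regions have a peak in every library of one group and in no library of the other. Their shares in the other 18 libraries were compared with two-sided exact permutation tests over libraries (SciPy 1.17.1), and 8 p-values were adjusted by the Benjamini-Hochberg method. A planned test on the authors' lists was not made, as they come from the libraries compared. The smallest p is 0.2 for 2 against 3 libraries, 0.1 for 3 against 3 and 0.0238 for 6 against 3. Up to 12 regions per direction were named by mean within-library percentile of −log10 p among full-list separating regions. The counting was tested on simulated data. Alternatives were a cover of 50%, a −log10 q of at least 5, ranking by fold enrichment, full lists, all chromosomes, the replicate block, leaving out each library and, added after the data were seen, summit windows of 200 bp, the duodenal fractions apart and list length kept when geriatric library 3 was left out. Comparisons and members were chosen with earlier results of these data known. Planned gene lists, markers, motifs and sequences need an mm9 annotation and were not used here.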

Additional observations from a re-analysis of the deposited data

How the results depend on the processing

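Of the results with a test, only the duodenal age difference passed 0.05 before adjustment; the others could not pass it in this design, and the cause of the changes below was not tested. With a cover of 50%, equal-length counts were 504 geriatric-only and 2835 juvenile-only regions, the full-list juvenile-only count was 4117, the duodenal difference was 7.66 points (exact permutation p = 0.214) and the adult colon gap 70.2 points, and the shares of the authors' lists differed by 44.9 and -36.0 points. With a −log10 q of at least 5, counts were 420 and 643 on equal-length and 239 geriatric-only on full lists, the adult colon gap was 66.1 points and the authors' lists differed by 29.95 and -15.9 points. On full lists the juvenile-only count was 2250, the authors' juvenile list differed by -38.9 points and the adult colon gap 39.2 points, or 42.6 points with separating regions taken from full lists. The duodenal difference with villus alone was 1.14 points.

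The juvenile-only crypt minus villus difference changed sign in geriatric libraries at −log10 q of at least 5 (9.28 points), with summit windows (1.37) and on full lists (1.84), and in adult libraries with separating regions from full lists (-3.59). Leaving out 1 library at a time gave 979 to 4555 geriatric-only and 1531 to 2404 juvenile-only regions on equal-length lists, and 802 to 4179 and 2813 to 4975 on full lists. The adult colon gap ranged from 48.3 to 70.1 points, the duodenal difference from 3.29 to 10.3, and the geriatric-only crypt excess from 7.77 to 18.1 in adult and 8.76 to 19.6 in geriatric libraries. The juvenile-only one ranged from -0.405 to 6.99 and from -1.72 to 3.54. Peaks per library differed by -8583 to -2844, and the shares of the authors' lists by 63.6 to 75.1 and by -30.9 to -23.0 points. Leaving out geriatric library 3 also lengthened the lists. With their length kept, the counts were 2716 and 2017, the adult colon gap 68.2 points, the authors' geriatric list difference 61.2 points and the juvenile-only crypt minus villus difference in geriatric libraries 3.78 points. Over all settings, 171 of 181 values kept their direction, 10 changed it, and 6 of the duodenal differences no longer passed 0.05. In 3 of those 6, a juvenile duodenum library was left out, and the exact permutation p of 0.0714 was the smallest possible.

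Numbers 1 and 3 occur in both groups, but nothing ties same-numbered libraries together, and their deviations correlated at -0.0479 over regions. With the replicate block, peaks per library differed by -5557 and the shares of the authors' lists by 63.6 and -23.5 points, the first with an exact sign-flip p of 0.5, the smallest possible. A peak missing from a list is not shown to be closed chromatin. Geriatric library 3 had the shortest list of the 23, though 34.0 M of its reads were kept.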

Other observations

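Outside the autosomes, the authors' deposited lists held 22 regions of chromosome X and 39 of chromosome Y higher in geriatric proximal colon, and 61 and 0 higher in juvenile colon. The peak tables held 105 and 155 chromosome Y peaks in geriatric libraries 1 and 3 and 96, 88 and 99 in juvenile colon libraries 1, 2 and 3. The sex of the pooled animals is not given in the labels, and chromosome Y was left out of the comparisons.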
